A study of Mus musculus with 24 samples.

Results

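The genes described here encode the mitochondrial respiratory chain and ATP synthase, measured in pancreatic islets of NOD mice. They were chosen by name: a noncontrol probe belonged when its gene name began with Nduf, Uqcr, Cox4, Cox5, Cox6, Cox7, Cox8, Atp5 or Sdh, or was Cycs, and the assembly factors Ndufaf and Sdhaf were dropped. The probe also had to be well above background in a channel on at least 6 arrays, and the brightest probe stood for its gene. Of 86 gene names 83 passed, out of 18085 genes tested. The isoforms Cox8c (0 arrays), Cox7b2 (0 arrays) and Cox4i2 (2 arrays) were too dim. The 83 were 37 genes named for complex I, 4 of complex II, 8 of complex III, cytochrome c, 15 named for complex IV and 15 of complex V. The other 3 met the naming rule but were not counted with a complex: Cox4nb, Atp5s and Atp5sl, now Emc8, Dmac2l and Dmac2.

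Each of 24 arrays set islet RNA of 1 female NOD/LtJ mouse, labelled with Cy5, against RNA pooled from 6 female NOD.B10Sn-H2b/J mice of its age, labelled with Cy3. The ages were 10 days, 4 weeks, 12 weeks and 20 weeks, with 6 NOD mice each, and 300 ng of RNA from islets freed by collagenase was labelled. NOD mice develop autoimmune diabetes after lymphocytes enter their islets, while the NOD.B10 strain, the diabetes-resistant control, differs in its H2 complex on chromosome 17, which holds the major histocompatibility genes. The pool of an age was taken as 1 control sample. A test of a ratio against 0 therefore leaves out the spread of the controls, and any difference between 2 pools is part of the contrast of their ages. All arrays ran in 1 dye orientation, so a constant dye effect on a probe stays in every ratio and drops out of a difference between ages.

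Complexes I and II take electrons from NADH and succinate and pass them to ubiquinone. Complex III hands them to cytochrome c and complex IV to oxygen, and the proton gradient built on the way drives ATP synthase, complex V. In the beta cell, ATP made from glucose closes potassium channels and so triggers insulin release.

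Transcription factors known to act on nuclear genes of the chain include NRF1, GABP of the ETS family, YY1 and ERR. RefSeq promoter windows (GRCm38.p6, 250 bases before to 50 bases after a start) were found for 70 of the 83 genes, in 76 windows. The NRF1 motif GCGCATGCG stood on either strand in 9 of the 76 windows (11.8%), against 1.75% of all 32851 windows in the table. Its shorter core GCATGCG, which the longer motif contains, stood in 15.8% against 3.58%. The ETS core CCGGAAG stood in 21.1% against 8.86%, and the YY1 core AAGATGGCG in 11.8% against 1.4%. The ERR motif TCAAGGTCA stood in 2 windows (2.63%) against 0.423%. These are matches of letters, not sites shown to be bound.

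The stretches printed here run from 150 bases before the start to 30 bases from it, 5′ to 3′, with each match in capitals. Atp5j, Sdhb and Ndufa6 were among the genes higher at all 4 ages, Cycs is cytochrome c, and Cox7a2l, with no match, had the largest ratio. The first window listed for Atp5j held no match and is not printed. Of the other genes higher at all 4 ages, Atp5f1, Ndufb5, Ndufv2, Ndufv3 and Uqcrc2 had no match found. A relation between motifs and ratios was not tested.
Atp5j: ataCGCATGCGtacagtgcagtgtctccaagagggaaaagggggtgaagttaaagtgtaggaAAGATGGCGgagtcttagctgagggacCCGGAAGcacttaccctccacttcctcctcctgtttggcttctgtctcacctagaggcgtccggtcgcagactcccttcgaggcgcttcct
Sdhb: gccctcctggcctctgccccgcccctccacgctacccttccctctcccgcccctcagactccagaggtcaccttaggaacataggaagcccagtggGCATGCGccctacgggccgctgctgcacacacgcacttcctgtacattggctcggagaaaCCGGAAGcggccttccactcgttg
Ndufa6: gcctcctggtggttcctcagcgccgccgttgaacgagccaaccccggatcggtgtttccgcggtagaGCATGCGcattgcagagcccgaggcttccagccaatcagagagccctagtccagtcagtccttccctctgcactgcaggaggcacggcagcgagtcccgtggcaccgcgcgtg
Cycs: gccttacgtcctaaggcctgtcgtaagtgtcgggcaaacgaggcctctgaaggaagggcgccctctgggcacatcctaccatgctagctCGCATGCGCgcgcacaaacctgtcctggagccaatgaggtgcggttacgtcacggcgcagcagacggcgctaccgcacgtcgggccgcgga
Cox7a2l: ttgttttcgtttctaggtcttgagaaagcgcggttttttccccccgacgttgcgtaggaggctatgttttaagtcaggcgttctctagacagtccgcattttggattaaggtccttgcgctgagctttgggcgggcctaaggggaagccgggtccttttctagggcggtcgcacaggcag
On GRCm38.p6 they lie at chr16:84834947-84835126 (minus strand) for the second window listed for Atp5j, chr4:140961121-140961300 (plus strand) for Sdhb, chr15:82354262-82354441 (minus strand) for Ndufa6, chr6:50566540-50566719 (minus strand) for Cycs and chr17:83514304-83514483 (minus strand) for Cox7a2l. The capitals mark the shorter NRF1 core in Atp5j, Sdhb and Ndufa6, the whole NRF1 motif in Cycs, the ETS core in Atp5j and Sdhb, and the YY1 core in Atp5j.

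Ratios are log2(NOD/pool) after within-array loess, above 0 where NOD islets had more, and each mean ± SD is over 6 mice. Loess sets genes of like brightness to a median near 0 on each array. A gene was called higher or lower where limma's adjusted p, by Benjamini-Hochberg over all genes tested, was under 0.05. Chain genes were bright, with a median log2 intensity of 11.9 against 7.52 for all genes tested, and none of their spots was saturated. The shares of all genes given below are thus over mostly dimmer genes, and shares over genes of like brightness alone were not taken. The share of probes well above background ran from 42.3% to 64.6% per array for NOD RNA and from 39.4% to 60.4% for the pool. Replicates 5 and 6 at 20 weeks stood apart from the other 4 mice of that age: their beta cell markers averaged -3.23 and -1.65, against -1.21 to -0.70 in the others, and their acinar markers 2.04 and 1.48, against -2.46 to -0.19. Both mice were also the dimmest of that age, with 42.3% and 47.7% of probes well above background for NOD RNA, against 51.4% to 64.6% in the others. The part of these marker and signal differences in the calls that rest on both mice was not tested. Results at 20 weeks are therefore also given without them where they change. Over all genes, 11 pairs of arrays of different ages were correlated below -0.3 (lowest -0.54). The lowest correlation between arrays of the same age was 0.19. The labels state the dyes, and the cause of the negative correlations was not tested. Over the chain genes the lowest correlation between arrays of different ages was -0.23.

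At 10 days 23 of the 83 genes were higher and 22 lower (27.7% and 26.5%), against 27.2% and 23.9% of all genes tested. At 4 weeks 34 were higher and 9 lower (41% and 10.8%), against 24.7% and 26.4%. At 12 weeks 23 were higher and 28 lower (27.7% and 33.7%), against 21.3% and 16.1%, and at 20 weeks 34 were higher and 15 lower (41% and 18.1%), against 23.9% and 25.1%. The 10 day shares were thus near those of all genes. At 4 and 20 weeks a larger share of chain genes than of all genes was higher and a smaller share lower. At 12 weeks both shares were larger than those of all genes, the lower one by more. Without replicates 5 and 6 the counts at 20 weeks were 18 higher and 25 lower, so the balance at that age rested on those 2 mice.

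Most ratios were small. With a 2-fold floor added, limma called 1 chain gene at 10 days (Cox7a2l) and 0 at each of the other ages, against 3.98%, 2.79%, 3.51% and 5.1% of all genes in order of age. Between the quartiles, chain genes spanned 0.36, 0.37, 0.56 and 0.39 in order of age, against 0.41, 0.39, 0.29 and 0.38 for all genes. The wider span at 12 weeks depended on the scaling: with each array centred on its median ratio it was 0.59, against 0.90 for all genes.

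**Figure D1:**
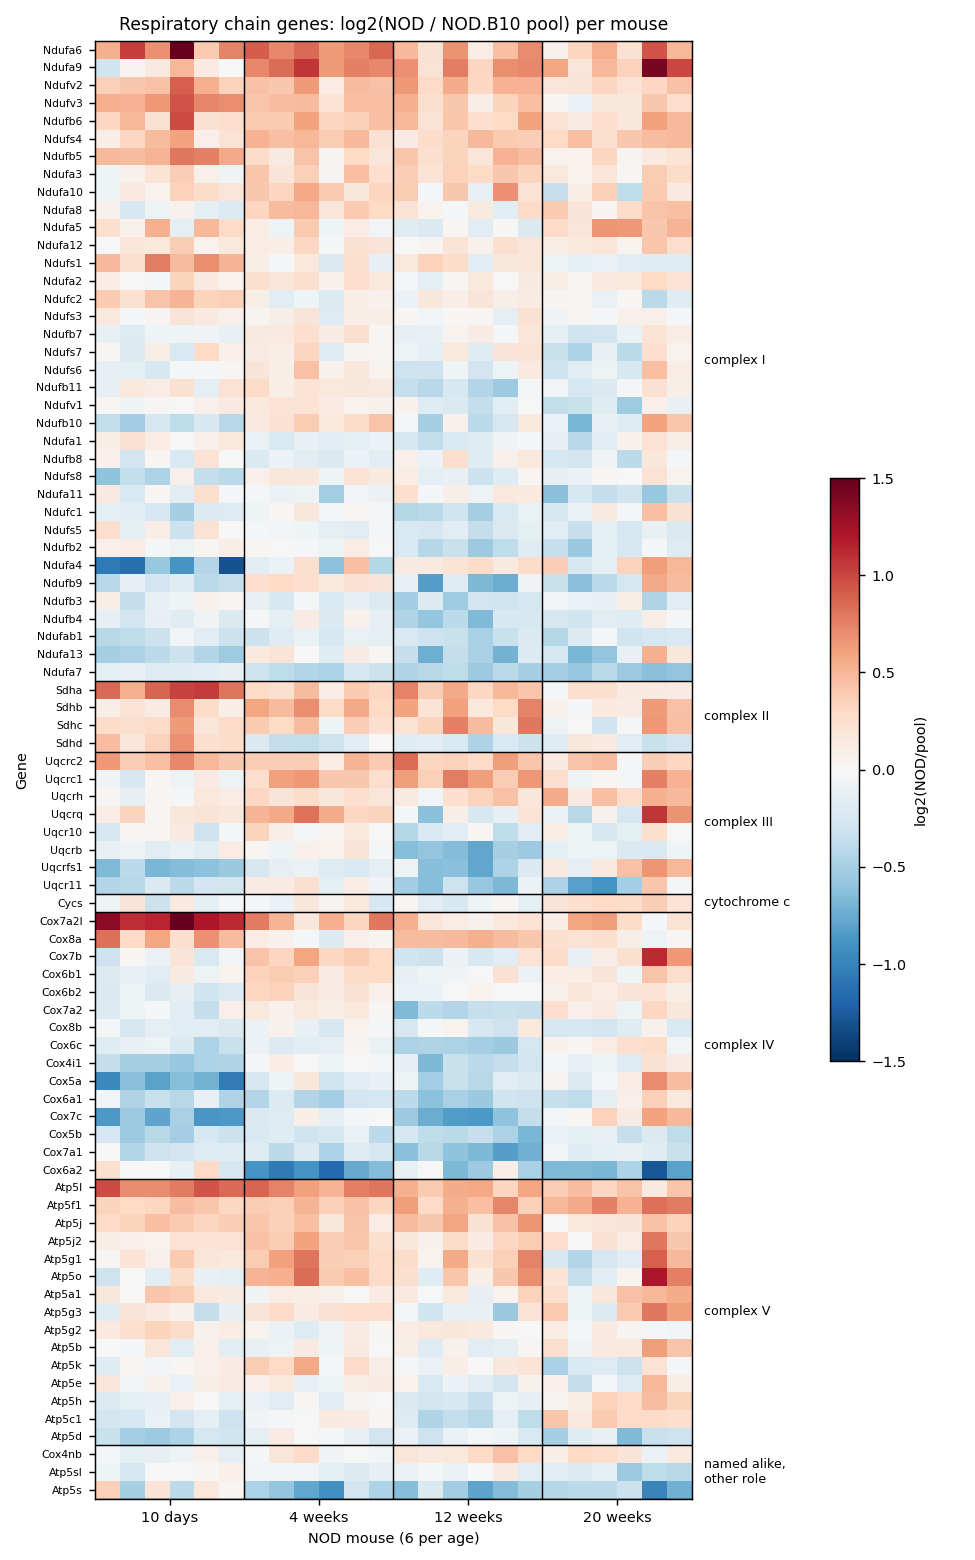
Colour gives log2(NOD/pool) of all but 1 of the 83 genes (vertical axis, grouped by complex) in each of the 24 NOD mice (horizontal axis, 6 per age). Cox7a2l is deep red at 10 days, most of complex IV is blue at 10 days and 12 weeks, and the 2 right-hand columns at 20 weeks, replicates 5 and 6, differ from the other 4.

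The direction of the whole set depended on the scaling. After loess the median ratio of the 83 genes was 0.00, 0.07, -0.04 and 0.11 in order of age, against 0.01, -0.01, 0.03 and -0.00 for all genes tested. When each array was instead centred on its median ratio, the median of all genes moved to 0.38, -0.15, 0.50 and -0.21, and that of the chain genes to 0.72, -0.19, 1.03 and -0.49. The calls then became 67 higher and 1 lower at 10 days, 0 and 4 at 4 weeks, 77 and 0 at 12 weeks, and 0 and 39 at 20 weeks. With the scanner's own dye-normalized signals they were 20 and 24, 29 and 12, 24 and 30, and 20 and 22. Under median centring the median of all genes moved the same way as that of the chain genes at each age. Counts under alternative settings, including slide blocks and left-out mice, are given here and below without the share of all genes. They are not read as particular to the chain. The order of genes within the chain moved less: Spearman's rho across the 83 genes between loess and median-centred ratios was 0.96, 0.97, 0.91 and 0.89, a description across genes that share their arrays. In what follows, higher and lower mean relative to genes of like brightness, and many of these directions turn with the scaling. Under median centring 3 of the 22 lower calls at 10 days, 0 of 28 at 12 weeks and 3 of the 34 higher calls at 20 weeks kept the sign of their ratio, as did 24 of the 34 higher calls at 4 weeks. The signs of the higher calls at 10 days and 12 weeks and of the lower calls at 4 and 20 weeks did not turn.

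**Figure D2:**
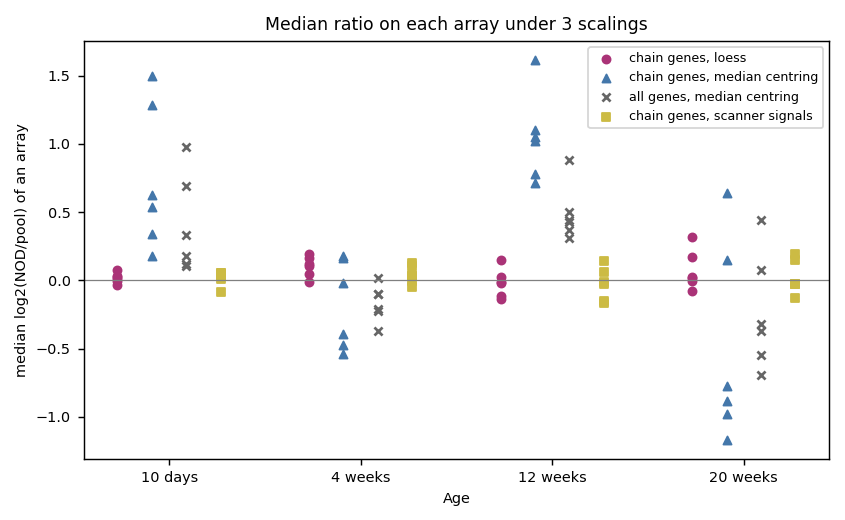
Each point is a median log2(NOD/pool) on 1 array (vertical axis) by age (horizontal axis, 6 arrays each): of the chain genes after loess (circles), median centring (triangles) or by scanner signals (squares), and of all genes after median centring (crosses). Chain gene medians after loess stay between -0.14 and 0.32, while after median centring they run from -1.17 to 1.62.

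The preparations also differed in markers of the cells they held. At 10 days 9 of 9 measured beta cell markers were higher (mean of the list per mouse from 0.45 to 1.83), while 6 of 6 fibroblast markers (-2.93 to -0.92) and 4 of 4 adipocyte markers (-1.78 to -1.19) were lower. At 4 weeks 9 of 10 acinar markers were higher (1.00 to 1.82) and 6 of 9 beta cell markers lower (-1.29 to -0.58). T cell markers were higher for 6 of 6 genes at both 12 weeks (1.94 to 3.15) and 20 weeks (2.01 to 3.86), and beta cell markers lower for 5 of 9 (-1.45 to -0.14) and then 9 of 9 (-3.23 to -0.70). Macrophage markers were higher for 5 of 6 genes at 12 weeks (0.62 to 1.36), B cell markers for 4 of 5 (0.86 to 2.27) and fibroblast markers for 4 of 6 (0.69 to 1.49). At 20 weeks 6 of 6 macrophage (1.07 to 2.23), 5 of 5 B cell (0.38 to 2.57) and 6 of 6 fibroblast markers (0.56 to 1.83) were higher. Duct markers were lower for 3 of 6 genes at 12 weeks (-1.15 to -0.996), endothelial markers for 3 of 5 at 10 days (-1.55 to -0.42), and markers of other endocrine cells were higher for 4 of 6 at 10 days (0.72 to 2.18). In whole islets fewer cells of a type and less RNA per cell cannot be told apart, and the part of these shifts in the ratios of the chain genes was not tested.

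Complex I, the NADH dehydrogenase, had higher and lower calls for 11 and 9 at 10 days, 16 and 3 at 4 weeks, 10 and 11 at 12 weeks and 12 and 6 at 20 weeks, out of 37 genes, with median ratios of 0.04, 0.14, 0.02 and -0.01. The shares were 29.7% and 24.3%, 43.2% and 8.11%, 27% and 29.7%, and 32.4% and 16.2%. Those of all genes, to be set beside each complex, were 27.2% and 23.9%, 24.7% and 26.4%, 21.3% and 16.1%, and 23.9% and 25.1%. At 10 days complex I was thus near all genes. Under median centring the counts became 32 and 0, 0 and 1, 37 and 0, and 0 and 22, and without replicates 5 and 6 the last pair was 5 and 15.

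Ndufa6, an accessory subunit, ranged from 0.40 to 1.52 at 10 days (median 0.71), 0.63 to 0.90 at 4 weeks (0.79), 0.11 to 0.71 at 12 weeks (0.47) and 0.07 to 0.94 at 20 weeks (0.41). It was higher at all 4 ages with all 24 mice above 0, by 0.82 ± 0.40, 0.78 ± 0.10, 0.44 ± 0.24 and 0.44 ± 0.30. The call at 20 weeks was lost without replicates 5 and 6 (0.29, adjusted p = 0.0648).

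Ndufa9, an accessory subunit near the ubiquinone site, showed no call at 10 days, where mice ran from -0.29 to 0.50 (mean 0.09 ± 0.26, adjusted p = 0.564). From 4 weeks on it was the gene of the chain with the highest mean. Close below it stood Ndufa6 at 4 weeks (0.78), Uqcrc1 at 12 weeks (0.57) and Atp5f1 at 20 weeks (0.66). The mice lay between 0.64 and 1.07 at 4 weeks (median 0.74), 0.22 and 0.77 at 12 weeks (0.69) and 0.18 and 1.42 at 20 weeks (0.54). Means were 0.79 ± 0.15 (adjusted p = 1.1e-05), 0.57 ± 0.24 (0.00051) and 0.67 ± 0.46 (5.39e-05), and at 20 weeks 0.40 without replicates 5 and 6 (adjusted p = 0.00312). Mice of 10 days and 4 weeks did not overlap, and the ratio was higher at 4 weeks (difference 0.70, SE 0.17, adjusted p = 0.00128), but after median centring that difference turned to -0.36. With intensities also scaled between arrays, the NOD mean was 12.40 at 10 days and 12.36 at 4 weeks in log2 intensity. The pool, 1 sample per age, went from 12.32 to 11.57.

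Ndufa4, named for complex I but now counted as a subunit of complex IV, was the lowest chain gene at 10 days. Its mice ran from -1.31 to -0.44 (median -0.97, mean -0.90 ± 0.33, adjusted p = 2.4e-06). At the later ages its means of -0.10 ± 0.40, 0.19 ± 0.07 and 0.24 ± 0.35 did not pass. Every mouse of 10 days was below 0 and every mouse of 12 weeks above it. Under median centring the ratio at 10 days was -0.15 and did not pass.

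Ndufa7, an accessory subunit, was lower at all 4 ages with little spread. The 6 mice ran from -0.19 to -0.11 at 10 days, -0.47 to -0.24 at 4 weeks, -0.54 to -0.39 at 12 weeks and -0.63 to -0.41 at 20 weeks, below 0 in all 24. Means were -0.15 ± 0.03, -0.36 ± 0.09, -0.45 ± 0.06 and -0.54 ± 0.08, with adjusted p = 0.00106, 7.03e-08, 2.97e-09 and 1.43e-10. Under median centring they were 0.60, -0.67, 0.68 and -1.17, so the sign turned at 10 days and 12 weeks. A second, dimmer probe of the gene read -0.16, -0.10, -0.57 and -0.55 after loess. The probe lies at chr17:33975141-33975200 (mm9), 158 kb from the probes of H2-K1, a gene of the H2 complex in which the strains differ. Of the other 5 chain genes on chromosome 17 the nearest to them was Ndufv3, 2474 kb away, which was higher at all 4 ages (0.68 ± 0.15, 0.41 ± 0.10, 0.35 ± 0.16 and 0.16 ± 0.18), though not at 20 weeks without replicates 5 and 6 (0.068, adjusted p = 0.446).

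Other complex I genes were called at fewer ages. Ndufa13, known also as Grim19, was lower at 10 days (-0.45 ± 0.07) and 12 weeks (-0.48 ± 0.21), each time in 6 of 6 mice (0.26 and 0.70 under median centring), against 0.05 ± 0.13 at 4 weeks. Ndufa5 was higher at 20 weeks (0.45 ± 0.19, 6 of 6 mice) and at 10 days (0.25 ± 0.26, 5 of 6 mice). Ndufa11 was lower at 20 weeks (-0.41 ± 0.15, 6 of 6 mice). Ndufb10 was lower at 10 days (-0.36 ± 0.10, 0.36 under median centring) and higher at 4 weeks (0.27 ± 0.12), with no overlap between the mice (difference 0.63, SE 0.15, adjusted p = 0.00181). Ndufb9 was lower at 12 than at 4 weeks (-0.66, SE 0.17, adjusted p = 0.00451), a call lost with the scanner's signals (-0.27, adjusted p = 0.118).

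Complex II, succinate dehydrogenase, links the chain to the citrate cycle. All 4 subunit genes were higher at 10 days, Sdha, Sdhb and Sdhc were higher and Sdhd lower at 4 and 12 weeks, and Sdhb alone passed at 20 weeks. The median ratios of the 4 were 0.34, 0.30, 0.45 and 0.13. Under median centring the higher and lower calls were 4 and 0, 0 and 0, 4 and 0, and 0 and 1. With the scanner's signals they were 3 and 0, 2 and 1, 3 and 1, and 0 and 0. There Sdhc lost its calls at 10 days (0.23, adjusted p = 0.139) and 4 weeks (0.18, adjusted p = 0.24). Sdhb lost its call at 20 weeks (0.23, adjusted p = 0.141). Sdha, the flavoprotein that oxidises succinate, lay between 0.54 and 1.04 at 10 days (median 0.86), 0.11 and 0.48 at 4 weeks (0.30), 0.31 and 0.75 at 12 weeks (0.46) and -0.03 and 0.24 at 20 weeks (0.14). Its means were 0.86 ± 0.18 (adjusted p = 1.25e-10), 0.30 ± 0.13 (0.000239), 0.49 ± 0.16 (1.33e-06) and 0.14 ± 0.10 (0.0517). The mice of 10 days lay above all those of 4 weeks (difference -0.55, SE 0.08, adjusted p = 1.7e-05), and those of 20 weeks below all those of 12 weeks (difference -0.34, SE 0.08, adjusted p = 0.00487). The second difference did not pass with slide as a fixed block (-0.35, adjusted p = 0.188). That setting takes the difference from mice on a shared slide alone, which leaves out replicates 5 and 6 at 20 weeks.

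Sdhb, the iron-sulfur subunit, was higher at all 4 ages (0.25 ± 0.24, 0.49 ± 0.17, 0.44 ± 0.25 and 0.23 ± 0.26). At 10 days replicate 4 stood at 0.71, and without that mouse the mean was 0.16 (adjusted p = 0.156). At 20 weeks the mean without replicates 5 and 6 was 0.08 (adjusted p = 0.554). The membrane anchors Sdhc and Sdhd differed in pattern. Sdhc was higher at 10 days (0.32 ± 0.16), 4 weeks (0.29 ± 0.19) and 12 weeks (0.46 ± 0.27), but without replicate 4 the call at 10 days was lost (adjusted p = 0.0544), and at 4 weeks it was lost without replicate 1, 3 or 5. Sdhd was higher at 10 days (0.36 ± 0.18, 6 of 6 mice) and lower at 4 weeks (-0.23 ± 0.15, 5 of 6 mice) and 12 weeks (-0.26 ± 0.11, 6 of 6 mice). Its mice of 10 days and 4 weeks did not overlap (difference -0.60, SE 0.10, adjusted p = 3.46e-05).

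Complex III, the cytochrome bc1 complex, had higher and lower calls for 1 and 2 at 10 days, 4 and 0 at 4 weeks, 3 and 4 at 12 weeks and 4 and 2 at 20 weeks, out of 8 genes, with median ratios of -0.06, 0.17, -0.17 and 0.21. The shares were 12.5% and 25%, 50% and 0%, 37.5% and 50%, and 50% and 25%. The counts became 6 and 0, 0 and 0, 7 and 0, and 0 and 3 under median centring, and 2 and 1 at 20 weeks without replicates 5 and 6. Of the core proteins, Uqcrc2 was higher at all 4 ages (0.51 ± 0.14, 0.36 ± 0.13, 0.48 ± 0.21 and 0.28 ± 0.19) and Uqcrc1 from 4 weeks on (0.43 ± 0.17, 0.57 ± 0.16 and 0.24 ± 0.33, after -0.05 ± 0.13 at 10 days). Without replicates 5 and 6 the call of Uqcrc1 at 20 weeks was lost (0.044, adjusted p = 0.67). Uqcrb, a small subunit known as ubiquinone-binding protein, lay between -0.17 and 0.11 at 10 days, -0.06 and 0.19 at 4 weeks, -0.78 and -0.50 at 12 weeks and -0.23 and -0.07 at 20 weeks. The 12 week mice stood below all others (-0.62 ± 0.10, adjusted p = 5.68e-10). From 4 to 12 weeks the difference was -0.66, SE 0.06, adjusted p = 1.77e-07, though under median centring the ratio at 12 weeks turned to 0.50. Among chain genes Uqcrb had the lowest p over the 4 ages.

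Uqcrfs1, the Rieske iron-sulfur protein, was lower at 10 days (mice -0.69 to -0.39, mean -0.59 ± 0.11) and 12 weeks (-0.47 ± 0.27), and higher at 20 weeks (0.29 ± 0.29, 5 of 6 mice). These signs turned under median centring (0.17, 0.65 and -0.32), and without replicates 5 and 6 the call at 20 weeks was lost (0.15, adjusted p = 0.179). Uqcrh, the hinge protein, was higher from 4 weeks on, by 0.23 ± 0.06, 0.22 ± 0.17 and 0.41 ± 0.17. At 10 days the reported probe read 0.03. Its dimmer probe read 0.39, 0.61, 0.42 and 0.41 in order of age, so the start at 4 weeks was not seen by both. Uqcrq was higher at 4 weeks (mice 0.31 to 0.81, mean 0.51 ± 0.18) and lower at 12 than at 4 weeks (difference -0.63, SE 0.19, adjusted p = 0.0104), a difference that did not pass with the scanner's signals (-0.34, adjusted p = 0.055). Cycs, the electron carrier to complex IV and a trigger of apoptosis once released, was called only at 20 weeks. There its mice lay between 0.19 and 0.36 (mean 0.27 ± 0.06, adjusted p = 0.000566), against -0.04 ± 0.19, 0.01 ± 0.15 and -0.09 ± 0.11 at the earlier ages.

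**Figure D3:**
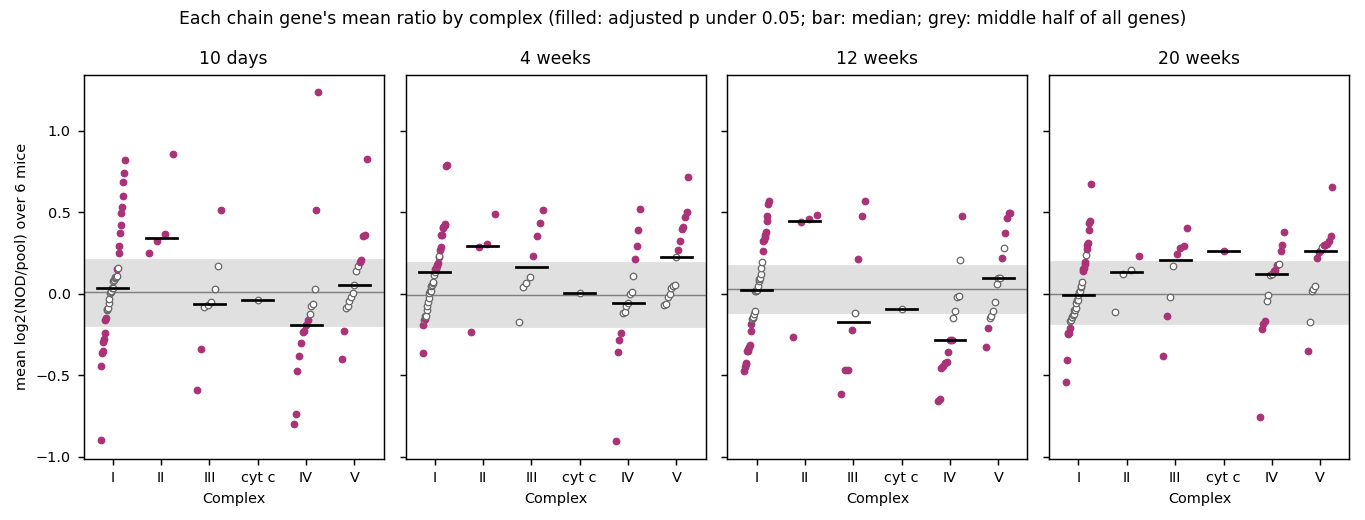
Each point is the mean log2(NOD/pool) of 1 gene over 6 mice (vertical axis) by complex (horizontal axis) at each age; filled points passed at an adjusted p under 0.05, bars are medians and the grey band spans the quartiles of all genes tested. The bar of complex II lies above the band at 10 days (0.34), 4 weeks (0.30) and 12 weeks (0.45) and within it at 20 weeks (0.13), and that of complex IV is at -0.19, -0.06, -0.29 and 0.12 in order of age.

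Complex IV, cytochrome c oxidase, had higher and lower calls for 2 and 9 at 10 days, 4 and 4 at 4 weeks, 1 and 9 at 12 weeks and 6 and 4 at 20 weeks, out of 15 genes, and median ratios of -0.19, -0.06, -0.29 and 0.12. The shares were 13.3% and 60%, 26.7% and 26.7%, 6.67% and 60%, and 40% and 26.7%. The scanner's signals gave 2 and 10, 4 and 5, 2 and 10, and 3 and 5, while median centring gave 8 and 1, 0 and 2, 11 and 0, and 0 and 6, so that the direction turned. Without replicates 5 and 6 the counts at 20 weeks were 3 and 4. The muscle isoform Cox8b is among the lower calls at 10 days and at 20 weeks, but it was not well above background in either channel on any array at 10 days and 4 weeks, and its ratios there carry no fold.

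Cox7a2l, related to the Cox7a subunits, joins complexes III and IV into supercomplexes. It was the highest chain gene at 10 days, with the 6 mice between 1.11 and 1.505 (median 1.17). They lay between 0.16 and 0.79 at 4 weeks, 0.06 and 0.53 at 12 weeks and -0.02 and 0.63 at 20 weeks, so that every mouse of 10 days stood above all older ones. Means were 1.24 ± 0.16 (adjusted p = 1.08e-10), 0.52 ± 0.25 (3.8e-05), 0.21 ± 0.16 (0.0584) and 0.30 ± 0.26 (0.00543). The difference between 4 weeks and 10 days was -0.72, SE 0.12, adjusted p = 4.64e-05. With slide as a fixed block it was -0.52 and did not pass (adjusted p = 0.0894).

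The nuclear-encoded subunits Cox5a and Cox7c were both low at 10 days. Cox5a lay between -1.05 and -0.63 (median -0.75, mean -0.80 ± 0.17, adjusted p = 1.39e-07) and Cox7c between -0.87 and -0.48 (median -0.82, mean -0.74 ± 0.17, adjusted p = 6.15e-08). At 4 weeks their means were -0.12 ± 0.16 and -0.08 ± 0.12, higher than at 10 days without overlap of the mice (differences 0.68, SE 0.13, adjusted p = 0.000139 and 0.66, SE 0.11, adjusted p = 4.51e-05). Cox7c was lower again at 12 weeks, where mice ran from -0.86 to -0.35 (mean -0.66 ± 0.19, adjusted p = 7.76e-07), and higher at 20 weeks (0.26 ± 0.26, 5 of 6 mice, adjusted p = 0.00771), a call lost without replicates 5 and 6 (0.12, adjusted p = 0.25). Between 12 and 20 weeks the mice did not overlap (difference 0.92, SE 0.11, adjusted p = 8.18e-06). With slide as a fixed block that difference was 0.48 and did not pass (adjusted p = 0.12), and under median centring the 3 differences turned in sign.

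Several complex IV subunits exist as tissue isoforms. Cox6a1, the general form of its pair, was lower at 10 days (-0.30 ± 0.18), 4 weeks (-0.36 ± 0.12) and 12 weeks (-0.44 ± 0.13). Cox6a2, the heart and skeletal muscle form, was 0.03 ± 0.21 at 10 days and the lowest chain gene at 4 and 20 weeks. Its mice ran from -1.17 to -0.65 at 4 weeks (mean -0.90 ± 0.19, adjusted p = 3.61e-07) and from -1.27 to -0.46 at 20 weeks (mean -0.76 ± 0.27, adjusted p = 1.78e-06). At 12 weeks it was -0.29 ± 0.32, and that call was lost without replicate 3, 4 or 6. Its probe was well above background in the pool on 2 of 6 arrays at 10 days, and on 6 of 6 at the later ages. Of 5 muscle markers 1 was measured, and it was called at no age.

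Cox7a1, the muscle form of another pair, was lower at all 4 ages (-0.23 ± 0.15, -0.28 ± 0.12, -0.64 ± 0.14 and -0.16 ± 0.10), with mice from -0.82 to -0.41 at 12 weeks. Its call at 20 weeks was lost without replicates 5 and 6 (-0.12, adjusted p = 0.148). Cox7a2, the general form, was lower at 12 weeks (-0.42 ± 0.13) and higher at 20 weeks (0.14 ± 0.14), a call lost without replicate 1, 5 or 6. Cox4i1, through which ATP inhibits the enzyme, was lower at 10 days (mice -0.56 to -0.36, mean -0.48 ± 0.07) and 12 weeks (-0.36 ± 0.18), against -0.00 ± 0.06 at 4 weeks and -0.01 ± 0.15 at 20 weeks.

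Cox8a, the general form of the smallest subunit, went the other way. It was higher at 10 days (0.52 ± 0.23, 6 of 6 mice) and at 12 weeks (mice 0.40 to 0.53, mean 0.47 ± 0.04), against 0.01 ± 0.11 at 4 weeks. Cox6b1 was higher at 4 weeks (0.29 ± 0.09) and 20 weeks (0.17 ± 0.17), the latter call being lost without replicates 5 and 6. Its testis form Cox6b2 was lower at 10 days (-0.19 ± 0.08) and higher at 4 weeks (0.21 ± 0.10) and 20 weeks (0.14 ± 0.06). Cox6c was higher at 20 than at 12 weeks (difference 0.57, SE 0.07, adjusted p = 1.49e-05), a difference that did not pass with slide as a fixed block (adjusted p = 0.0789).

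Complex V, ATP synthase, had higher and lower calls for 5 and 2 at 10 days, 7 and 0 at 4 weeks, 5 and 2 at 12 weeks and 9 and 1 at 20 weeks, out of 15 genes, with median ratios of 0.05, 0.23, 0.10 and 0.26. The shares were 33.3% and 13.3%, 46.7% and 0%, 33.3% and 13.3%, and 60% and 6.67%. Median centring gave 13 and 0, 0 and 0, 15 and 0, and 0 and 5, and leaving out replicates 5 and 6 gave 6 and 3 at 20 weeks. Atp5l, subunit g of the membrane part, lay between 0.71 and 0.98 at 10 days (median 0.81), 0.51 and 0.87 at 4 weeks (0.75), 0.32 and 0.59 at 12 weeks (0.54) and 0.14 and 0.47 at 20 weeks (0.39). All 24 mice were above 0, and the means were 0.83 ± 0.12, 0.72 ± 0.13, 0.49 ± 0.11 and 0.35 ± 0.12, with adjusted p = 2.44e-11, 1.11e-09, 1.43e-07 and 6.39e-06. Atp5f1, now Atp5pb, of the peripheral stalk was also above 0 in all 24 mice, by 0.36 ± 0.07, 0.39 ± 0.07, 0.50 ± 0.17 and 0.66 ± 0.14.

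Of the catalytic head, the gamma subunit gene Atp5c1 had the second lowest p over the 4 ages. Its mice lay between -0.31 and -0.09 at 10 days, -0.05 and 0.15 at 4 weeks, -0.46 and -0.15 at 12 weeks and 0.14 and 0.41 at 20 weeks. It was lower at 10 days (-0.23 ± 0.09) and 12 weeks (-0.33 ± 0.13) and higher at 20 weeks (0.30 ± 0.10), and all 3 signs turned under median centring (0.49, 0.84 and -0.37). From 12 to 20 weeks the difference was 0.62, SE 0.06, adjusted p = 1.39e-06, and with slide as a fixed block 0.54 (adjusted p = 0.0573). Atp5d, the delta subunit, was lower at 10 days (-0.40 ± 0.12) and 20 weeks (-0.35 ± 0.20), in 6 of 6 mice at both, but read 0.37 at 10 days under median centring.

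The genes Atp5g1, Atp5g2 and Atp5g3 encode the same mature subunit c, which forms the rotating ring, behind different import signals. They were called at different ages: Atp5g1 was higher at 4 weeks (0.47 ± 0.20) and 12 weeks (0.37 ± 0.25), Atp5g2 at 10 days (0.20 ± 0.10) and Atp5g3 at 20 weeks (0.32 ± 0.39, 4 of 6 mice). Whether the 3 differ from each other was not tested. The call of Atp5g1 at 12 weeks was lost without replicate 3 or 6, that of Atp5g2 with the scanner's signals (0.03, adjusted p = 0.688), and that of Atp5g3 without replicates 5 and 6 (0.13, adjusted p = 0.331).

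**Figure D4:**
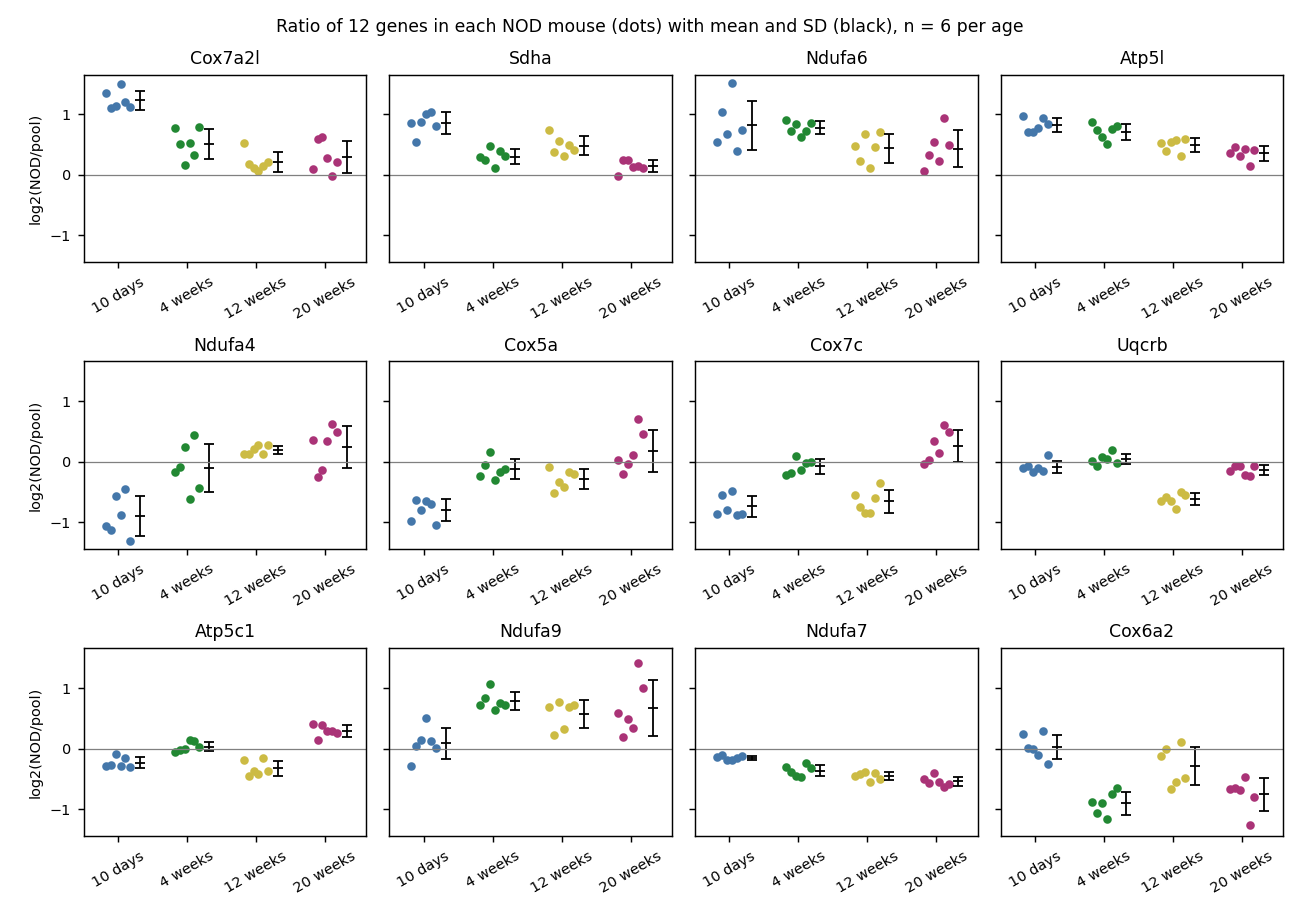
Dots give log2(NOD/pool) (vertical axis) of 12 genes in each of 6 NOD mice per age (horizontal axis), and black bars the mean and SD. Every mouse of 10 days lies above the older mice for Cox7a2l, the 12 week mice lie below all others for Uqcrb, and Ndufa7 is below 0 in all 24 mice.

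The ratio differed among the 4 ages, by limma's moderated F test, for 61 of the 83 genes, against 76% of all genes tested; by complex these were 25 of 37 in complex I, 2 of 4 in II, 7 of 8 in III, 14 of 15 in IV and 9 of 15 in V. From 10 days to 4 weeks 25 genes rose and 14 fell (30.1% and 16.9%), against 24% and 26.9% of all genes. From 4 to 12 weeks 3 genes rose and 28 fell (3.61% and 33.7%), against 23.5% and 18%, and from 12 to 20 weeks 21 genes rose and 10 fell (25.3% and 12%), against 11.2% and 15.5%. With the scanner's signals 5 rose and 14 fell from 4 to 12 weeks, and without replicates 5 and 6 at 20 weeks 17 fell from 12 to 20 weeks. Between 10 days and 20 weeks 23 rose and 20 fell, against 26.2% and 27.7%, and with the scanner's signals 15 rose. In complex IV 7 genes rose and 3 fell from 10 days to 4 weeks, 2 rose and 9 fell by 12 weeks, and 10 rose and 2 fell by 20 weeks. Under median centring these directions turned: of the 83 genes 1 rose and 67 fell, then 81 rose and 0 fell, then 0 rose and 81 fell.

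Slide is confounded in part with age. Of 6 slides, 1 held mice of 10 days and 4 weeks and 1 held mice of 12 and 20 weeks, with 2 mice of each age, and none joined 4 and 12 weeks. Within the first, all 39 genes that passed between 10 days and 4 weeks kept their direction. Within the second, 28 of the 31 that passed between 12 and 20 weeks did, the exceptions being Cox6a1, Ndufb4 and Ndufc1. The mice on these slides were part of the fit that picked the genes. Agreement in direction is therefore in part built in and is no separate check on slide. With slide as a fixed block 13 genes rose and 4 fell from 10 days to 4 weeks, and 1 rose and 0 fell from 12 to 20 weeks. That setting takes each difference from the shared slide alone, so it rests on the same 2 mice of each age. At 20 weeks these were replicates 1 and 2, so a call lost there can reflect slide, fewer mice or the absence of replicates 5 and 6. These cannot be told apart. For 4 against 12 weeks slide and age cannot be told apart.

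The level of the pool often moved with age as well. After the intensities were also scaled between arrays, the pool's mean ranged more widely over the 4 ages than that of the NOD mice in 39 of the 61 genes whose ratio differed. For Sdha the NOD mean stayed between 8.67 and 8.96 on the log2 intensity scale, while the pool went from 7.98 at 10 days to 8.74 at 20 weeks. For Ndufa4 the pool went from 12.34 at 10 days to 11.45 at 20 weeks, and the NOD mean lay between 11.44 and 11.95. Ndufa7 was the opposite case, with the pool between 12.31 and 12.49 and the NOD mean going from 12.21 at 10 days to 11.78 at 20 weeks. Each pool is 1 sample, so its changes have no replicate check.

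**Figure D5:**
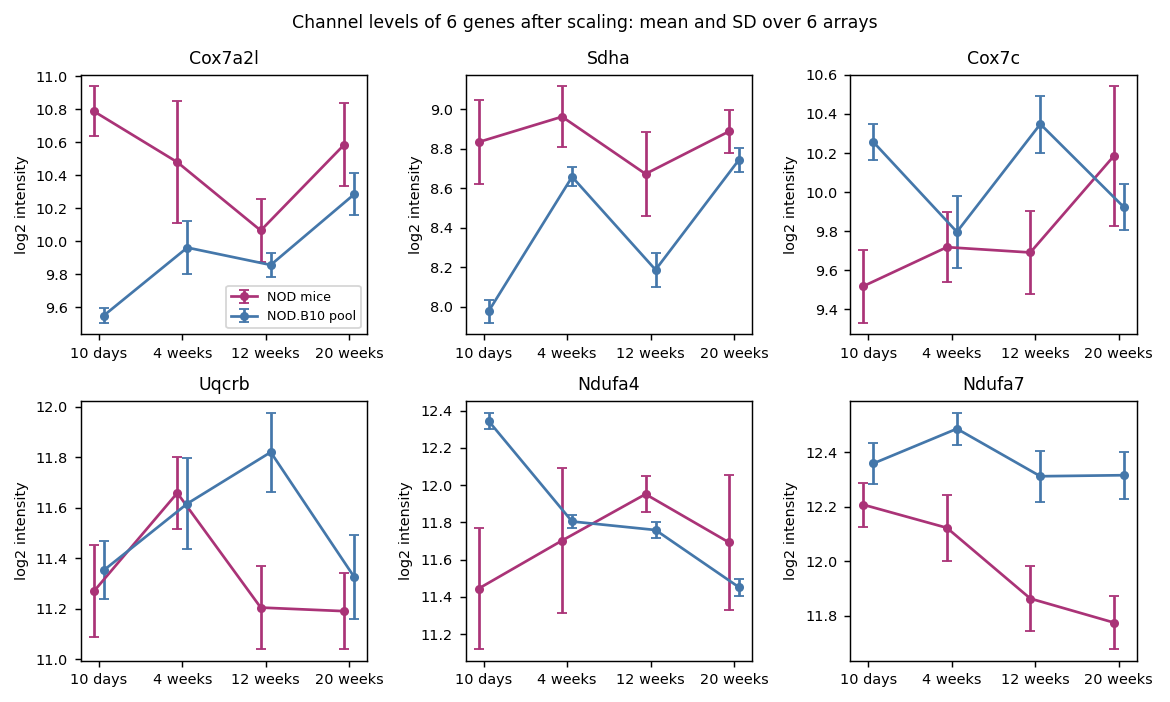
Mean log2 intensity (vertical axis) of 6 genes in the NOD mice (magenta) and the NOD.B10 pool (blue) at each age (horizontal axis), after loess and scaling between arrays, with the SD over 6 arrays; for the pool this is the SD of repeated hybridisations. For Sdha and Ndufa4 the pool moves more over age than the NOD mean, and for Ndufa7 the NOD mean moves more.

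Across ages, 11 of the 83 genes were higher at all 4 (13.3%), against 2.8% of all genes tested. They were Atp5j, Atp5l, Atp5f1, Ndufa6, Ndufb5, Ndufb6, Ndufs4, Ndufv2, Ndufv3, Sdhb and Uqcrc2. Lower at all 4 ages were 4 (4.82%), against 2.03%, namely Cox5b, Cox7a1, Ndufa7 and Ndufab1. A second, dimmer probe of Ndufab1 read -0.43, 0.26, -0.19 and 0.041, above 0 at 4 and 20 weeks. With the scanner's signals 7 of the 11 and 3 of the 4 kept this pattern, and under median centring 0 of either. Without replicates 5 and 6 at 20 weeks 5 of the 11 and 3 of the 4 did. A dye effect of a probe also has the same sign at every age and cannot be told apart from a strain difference here. Another 9 genes were higher at 1 age and lower at another, against 24.6% of all genes, and 5 were called at no age (Atp5e, Ndufb8, Ndufs3, Ndufs6 and Ndufs7), against 10.1%. Some genes with no call at 20 weeks were lower there without replicates 5 and 6, among those described -0.41 for Ndufa13, -0.41 for Ndufb9, -0.27 for Ndufb10, -0.27 for Atp5g1, -0.20 for Cox6a1, -0.22 for Ndufb4, -0.25 for Ndufb8, -0.20 for Ndufs6 and -0.32 for Ndufs7, while Cox8a was higher (0.20).

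Other genes of mitochondrial metabolism were read from lists in the same fit and are given under both scalings, which differ in the balance of calls at some ages and not at others. After loess, 27.2% and 23.9% of all genes were higher and lower at 10 days, 24.7% and 26.4% at 4 weeks, 21.3% and 16.1% at 12 weeks and 23.9% and 25.1% at 20 weeks. Counts near these shares, here and for the lists below, are not read as results about the listed genes. Of 13 citrate cycle enzymes, the higher and lower calls were 7 and 0 at 10 days, 7 and 4 at 4 weeks, 7 and 1 at 12 weeks and 6 and 4 at 20 weeks, with median ratios of 0.28, 0.15, 0.27 and 0.11, and under median centring 13 and 0, 1 and 2, 13 and 0, and 0 and 6. Suclg2, a succinyl-CoA ligase subunit, was higher at all 4 ages (1.06 ± 0.40, 1.34 ± 0.30, 0.76 ± 0.27 and 0.69 ± 0.22), and Idh3b, of isocitrate dehydrogenase, reached 0.96 ± 0.22 at 10 days. Of 78 genes of the mitochondrial ribosome, the calls were 22 and 15 at 10 days, 38 and 12 at 4 weeks, 19 and 14 at 12 weeks and 24 and 19 at 20 weeks, with median ratios of 0.03, 0.14, 0.04 and 0.05, and under median centring 71 and 0, 1 and 7, 76 and 0, and 0 and 36. Of 35 measured assembly factors they were 10 and 11 at 10 days, 7 and 12 at 4 weeks, 7 and 11 at 12 weeks and 6 and 10 at 20 weeks, with median ratios of -0.00, -0.06, -0.04 and -0.07, and under median centring 24 and 0, 0 and 9, 31 and 0, and 0 and 19. The copper chaperone Cox17 was lower at 10 days (-1.18 ± 0.53, adjusted p = 3.57e-05) and 12 weeks (-0.94 ± 0.40, adjusted p = 0.000686). Uqcc2, a complex III assembly factor, was higher at 10 days (0.88 ± 0.11) and lower at 20 weeks (-0.79 ± 0.12).

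Of 23 measured genes of protein import, higher and lower calls were 11 and 4 at 10 days, 12 and 3 at 4 weeks, 6 and 4 at 12 weeks and 10 and 4 at 20 weeks, with median ratios of 0.16, 0.16, 0.02 and 0.04, and under median centring 19 and 0, 0 and 2, 20 and 0, and 0 and 11. The outer membrane receptor Tomm22 was higher at all 4 ages (0.78 ± 0.25, 0.81 ± 0.15, 0.58 ± 0.14 and 0.63 ± 0.17). Among 7 carriers and channels the calls were 3 and 1 at 10 days, 3 and 1 at 4 weeks, 3 and 1 at 12 weeks and 2 and 3 at 20 weeks, with median ratios of 0.27, 0.05, 0.15 and 0.11, and under median centring 6 and 0, 0 and 1, 7 and 0, and 0 and 3. The adenine nucleotide carrier Slc25a5 was higher at all 4 ages (0.76 ± 0.09, 0.57 ± 0.14, 0.69 ± 0.17 and 0.59 ± 0.36; 0.37 at 20 weeks without replicates 5 and 6), while the uncoupling protein Ucp2 was lower at 4 weeks (-0.59 ± 0.11). Of 13 regulators of mitochondrial biogenesis the calls were 2 and 3 at 10 days, 3 and 4 at 4 weeks, 3 and 5 at 12 weeks and 3 and 1 at 20 weeks, with median ratios of -0.05, 0.05, -0.09 and 0.01, and under median centring 11 and 0, 0 and 3, 9 and 0, and 0 and 4. Tfam, which packages mitochondrial DNA, was lower at 4 weeks (-0.53 ± 0.33) and 20 weeks (-0.78 ± 0.22), and the coactivator Ppargc1a at 12 weeks (-0.60 ± 0.13, adjusted p = 0.0361). Without replicates 5 and 6 the calls at 20 weeks were 15 and 20 for the mitochondrial ribosome, 2 and 0 for the carriers and 3 and 2 for the biogenesis regulators.

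Glycolysis, which feeds the chain, had higher and lower calls for 7 and 4 at 10 days, 4 and 6 at 4 weeks, 6 and 1 at 12 weeks and 6 and 5 at 20 weeks, out of 15 genes, with median ratios of 0.10, -0.12, 0.21 and 0.01, and under median centring 10 and 0, 1 and 4, 13 and 0, and 2 and 7. Ldha, a lactate dehydrogenase that beta cells normally keep low, was higher at 4 weeks (1.40 ± 0.17), 12 weeks (0.97 ± 0.18) and 20 weeks (2.05 ± 0.16, adjusted p = 6.01e-14), beside the acinar, T cell and beta cell markers given above. Cyc1, cytochrome c1 of complex III, which the naming rule leaves out, was higher at 4 weeks (0.31 ± 0.20) and 12 weeks (0.31 ± 0.24).

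For 24 of the 83 genes the arrays held 31 further probes. These had the sign of the reported probe in 23, 21, 23 and 23 cases in order of age and lay within 0.5 of it in 26, 28, 28 and 31. Dimmer probes of Atp5b read 1.10, 0.53, 0.85 and 0.43, and 0.85, 0.50, 0.47 and 0.40, against -0.02, -0.00, -0.05 and 0.26 for the reported probe. For Ndufv3, higher at all 4 ages by the reported probe, dimmer probes read -0.22 and -0.07 at 20 weeks. Of the 3 genes not counted with a complex, Atp5s was lower from 4 weeks on (-0.58 ± 0.23, -0.55 ± 0.19 and -0.54 ± 0.26, in 6 of 6 mice each time).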

How the data were processed

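Islet RNA of 24 individual NOD mice was measured on 2-colour Agilent arrays, 6 mice per age. The deposited scanner files, made with Feature Extraction 10.7.3.1 per the file headers, hold spot and background intensity of each channel and a dye-normalized log10 ratio. The authors' deposited value table holds log2 ratios that matched the scanner's ratio and were not centred.

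The tools were R 4.3.3, data.table (version 1.17.8), statmod (version 1.5.0) and limma (version 3.58.1). Intensities were corrected by normexp (offset 50) and normalized by loess within arrays, with control spots at weight 0. Spots of a probe were averaged, outlier spots were left out, and 25931 of 41174 probes were kept. The 4 age means were fitted with lmFit and eBayes on all 24 arrays at once, and p-values were adjusted over 18085 genes. Gene symbols of the array design were updated through RefSeq tables. The steps were tested on simulated data. The number of arrays limits the precision.

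The genes, lists and markers were chosen with earlier results of these data known. Named genes were, per age, up to 5 highest and 5 lowest among those passing with 1 sign in all 6 mice. Per contrast of neighbouring ages they were up to 4 each way whose mice did not overlap, and over the ages the 4 with the lowest p. Complex II, Cycs and the isoform groups were named whatever their result, and from each other list up to 2 highest and 2 lowest passing genes per age. Values of genes outside this rule (such as Ndufv3 and Uqcrc2) and of named genes at ages where the rule did not pick them, were chosen after they were seen. Alternatives were median centring, the scanner's signals, the deposited table, background correction, the choice of probe, filters on dim probes, slide and replicate blocks, ages fitted alone and left-out mice. The differences within a slide were added after seeing the data. Some genes that the rule names are not reported here.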

Additional observations from a re-analysis of the deposited data

Results flagged for a closer look

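In 8 of 168 sets of 6 mice examined, 1 mouse lay far from the other 5 by Dixon's criterion, and chance gives about 1 in 20. At 10 days replicate 4 stood high for 2 subunits of complex II, Sdhb (0.71 against 0.09 to 0.28 in the others) and Sdhc (0.64 against 0.19 to 0.29). At that age replicate 6 stood high for Uqcrb (0.11 against -0.17 to -0.07). At 4 weeks replicate 4 stood low for Ndufa11 (-0.51 against -0.09 to -0.03).

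At 12 weeks replicate 1 stood low for Cox7a2 (-0.66 against -0.44 to -0.33) and high for its relative Cox7a2l (0.53 against 0.06 to 0.22), and replicate 5 stood high for Cox6b1 (0.23 against -0.12 to 0.00). At 20 weeks replicate 5, 1 of the 2 mice that stood apart, was high for Cox8b (0.066 against -0.29 to -0.18), a gene well above background in the NOD channel on 1 array of that age. The ratio of 61 of the 83 genes differed among the 4 ages by limma's moderated F test.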

How the results depend on the processing

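Centring each array on its median, in place of loess, changed the calls most. Higher and lower calls were then 67 and 1 at 10 days, 0 and 4 at 4 weeks, 77 and 0 at 12 weeks and 0 and 39 at 20 weeks, and the median of the chain genes relative to all genes was 0.34, -0.047, 0.53 and -0.28. Between ages they were 1 and 67, 81 and 0, 0 and 81, and 0 and 77 from 10 days to 20 weeks. Of the calls of named genes 39 turned in sign, 17 lost significance and 39 kept their call; the cause was not tested. At 10 days the turned ratios were 0.25 for Cox4i1, 0.39 for Cox6a1, 0.27 for Cox6b2, 0.39 for Cox7a1, 0.037 for Cox7c and 0.17 for Uqcrfs1. At 4 weeks they were -0.045 for Sdha and -0.067 for Sdhc. At 12 weeks they were 0.79 for Cox4i1, 0.75 for Cox6a1, 0.47 for Cox6a2, 0.059 for Cox7a1, 0.72 for Cox7a2, 0.40 for Cox7c, 0.20 for Atp5s, 0.70 for Ndufa13, 0.84 for Sdhd and 0.50 for Uqcrb. At 20 weeks they were -0.34 for Atp5g3, -0.22 for Cox6b1, -0.49 for Cox7a2, -0.29 for Cox7a2l, -0.36 for Cycs, -0.19 for Ndufa5, -0.14 for Ndufa6, -0.33 for Sdhb and -0.27 for Uqcrh. Of the differences, those from 10 days to 4 weeks became -0.33 for Cox5a, -0.48 for Cox7c, -0.36 for Ndufa9 and -0.34 for Ndufb10, those from 4 to 12 weeks 0.84 for Cox7c, 0.74 for Ndufb9, 0.78 for Uqcrb and 0.77 for Uqcrq, and those from 12 to 20 weeks -1.20 for Atp5c1, -1.20 for Cox6c, -0.71 for Cox7c and -1.20 for Ndufa5.

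With the scanner's signals 20 chain genes were higher at 20 weeks, 5 rose and 14 fell from 4 to 12 weeks, and 15 rose from 10 days to 20 weeks; the authors' deposited table gave 20, 5, 15 and 15. Without replicates 5 and 6 at 20 weeks 18 were higher and 25 lower, and 17 fell from 12 weeks. Slide as a random block gave 14 lower at 4 weeks and 6 that rose from 4 to 12 weeks. As a fixed block, which compares only mice on a shared slide, it gave 13 that rose and 4 that fell from 10 days to 4 weeks. From 12 to 20 weeks it gave 1 and 0. Fitting each age alone, on fewer arrays, gave 17 higher at 20 weeks.

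Leaving out 1 mouse at a time gave 19 to 25 higher and 20 to 23 lower at 10 days, 29 to 37 and 8 to 11 at 4 weeks, 20 to 26 and 26 to 29 at 12 weeks, and 27 to 36 and 14 to 21 at 20 weeks, and 57 to 68 genes differing among ages. For named genes 2257 of these comparisons kept the call, 23 lost it and none turned. With no background correction, or with the mean of a gene's probes, all 95 calls were kept. With a replicate block 26 genes rose and 14 fell from 10 days to 4 weeks, 3 and 25 from 4 to 12 weeks, 21 and 9 from 12 to 20 weeks, and all 20 named differences kept their call. Mice of the same number at different ages had a median correlation of -0.10 (from -0.42 to 0.63). Those of different numbers had -0.0068 (from -0.63 to 0.66). Whether mice of the same number share more than a number was not tested. Dim genes such as Cox8b are limited by signal over background, and 6 mice and 1 pool per age limit the precision of all.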
